A study of Arabidopsis thaliana with 4 samples.

Results

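AtLEA4-1 (AT1G32560), LEA18 (AT2G35300, also known as LEA4-2) and LEA4-5 (AT5G06760) are the 3 Arabidopsis thaliana genes of the LEA_1 family of late embryogenesis abundant (LEA) proteins, out of 13286 genes with a named probe set on the arrays. They lie on chromosomes 1, 2 and 5, and each is measured by 1 probe set. They were chosen by their array signals, which differed between the flc-3 mutant and the wild type, so that difference is described here without a test. Family membership is taken from general knowledge of the gene family. The LEA4 names come from a classification in which the family is counted as group 4, and LEA18 is unrelated to the PvLEA18 family mentioned further on.

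LEA proteins are very hydrophilic and largely unfolded in solution. Those of the LEA_1 family accumulate late in seed development as the embryo dries, are lost after germination, and can be made again in vegetative tissue under water deficit or abscisic acid (ABA), the hormone of seed maturation and drought. They are known to protect enzymes from inactivation during partial drying in the test tube.

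The study compared 2 arrays of flc-3 with 2 of the wild type to look for targets of FLC at 27 °C. For flc-3, in the Col-0 background, the labels give a knockout of FLC (AT5G10140), a MADS-box repressor of flowering, and its titles write fri in lower case, which leaves its FRI allele unsettled. The wild type, also in the Col-0 background, is labelled as carrying FRI and FLC. All seedlings, taken whole, grew on agar with 3% sucrose. They had 6 days of constant light, then 4 days of entrainment at 22 °C with 12 h of light and 12 h of darkness per day, and were last held in constant light at 27 °C. Every array carried RNA pooled from 24, 30, 36 and 42 h at 27 °C, so each value averages over a circadian cycle. FLC itself has no named probe set here, and the genotype labels were therefore not checked against the level of the targeted gene.

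The values are MAS5 signals, a relative brightness for each probe set, scaled by the authors to an equal trimmed mean on every array. Median signals lay between 47.1 and 48.5, and log2 signals of tested probe sets correlated at 0.988 between the flc-3 arrays, at 0.98 between the wild-type arrays and at 0.967 to 0.972 across genotypes. With 2 arrays per genotype, precision is limited by their number. Spiked-in hybridization controls, 9 bacterial and phage probe sets, had a geometric mean of 128 and 203 in flc-3 replicates 1 and 2, against 184 and 353 in wild type replicates 1 and 2. A control for 25S ribosomal RNA read 1426 in flc-3 replicate 1 and at most 134.6 on the other arrays. The ratio of the 3′ to the 5′ probe set of actin, which falls as RNA is more intact, was 4.23 and 4.52 in flc-3 and 3.76 and 4.44 in the wild type. That of GAPDH was 1.02 and 1.06 in flc-3 and 1.18 and 1.10 in the wild type. That of ubiquitin was 2.04 and 2.00 in flc-3 and 2.12 and 2.17 in the wild type. With these probe sets both were lower in flc-3 with no overlap. Another pair of probe sets for GAPDH and for ubiquitin gave ratios that overlapped between genotypes. The 3′ signal of this GAPDH pair was 1897 and 2390 in flc-3 and 2248 and 1912 in the wild type. Its 5′ signal was 1794 and 2455 in flc-3 and 2285 and 2059 in the wild type. The part of RNA quality in the differences below was not tested.

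All 3 LEA_1 genes were several-fold brighter in flc-3 than in the wild type, and in each the lower flc-3 array exceeded the higher wild-type array. The mean signal of LEA4-5 was 729 ± 157 in flc-3 and 135 ± 35.1 in the wild type (SD, n = 2 each). AtLEA4-1 averaged 545 ± 47.4 in flc-3 and 121 ± 9.76 in the wild type (SD, n = 2 each). LEA18 averaged 684 ± 91.7 in flc-3 and 227 ± 31.0 in the wild type (SD, n = 2 each). Because whole seedlings were used, more cells that make these transcripts and more transcript per cell cannot be told apart.

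LEA4-5, which is known to be induced in leaves and roots by water deficit and ABA, read 840 and 618 in flc-3 replicates 1 and 2, against 160 and 110 in wild type replicates 1 and 2. The genotypes did not overlap, the dimmer flc-3 array being 3.87 times the brighter wild-type array. On the log2(value + 1) scale the difference was 2.43 ± 0.19 (limma standard error), a fold of 5.41, and 14th in size from the top among the 13648 probe sets bright enough to be tested.

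AtLEA4-1 read 579 and 512 in flc-3, against 128 and 114 in the wild type. Its replicates were the closest of the family, and the dimmer flc-3 array was 4.01 times the brighter wild-type array. The log2 difference was 2.17 ± 0.11 (limma standard error), a fold of 4.49 and 23rd in size among tested probe sets.

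LEA18 read 748 and 619 in flc-3, against 249 and 205 in the wild type. The genotypes again did not overlap, with a ratio of 2.49 between the dimmer flc-3 array and the brighter wild-type array. The log2 difference was 1.59 ± 0.13 (limma standard error), a fold of 3.01 and 60th in size among tested probe sets.

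**Figure D1:**
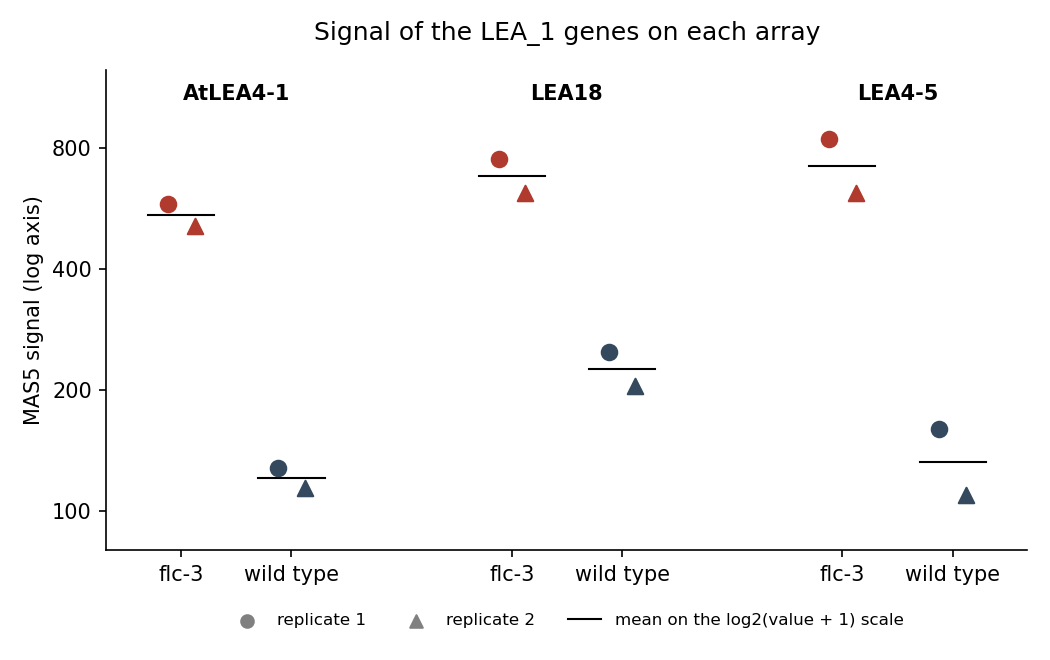
MAS5 signal (log axis) of AtLEA4-1, LEA18 and LEA4-5 on each array, flc-3 left of the wild type for each gene, with circles for replicate 1, triangles for replicate 2 and a bar at the mean on the log2(value + 1) scale. The flc-3 signals lie between 512 and 840 and the wild-type signals between 110 and 249, and replicate 1 lies above replicate 2 in all 6 pairs.

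None of these genes was near the floor of the measurement in either genotype. Their signals lay between the 95.0th and 97.6th percentile of all probe sets on the flc-3 arrays and between the 72.1st and 88.2nd on the wild-type arrays. All 3 were above the filter on dim probe sets, which sits at a signal of 30.8, and each wild-type array on its own was above that level, so no member was tested only because of its flc-3 signal. For background, the limma fit called 187 of 13648 tested probe sets higher in flc-3 (adjusted p under 0.05), or 1.37%, and 1.69% in either direction. No call is given for the 3 members. Both flc-3 arrays lay above both wild-type arrays in all 3, as they did in 20.1% of tested probe sets. Since the same contrast chose the genes, nothing is read from that count.

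Within the family the size of the difference varied. Setting each flc-3 array against each wild-type array gave 4 differences per gene, which ran from 1.31 to 1.86 for LEA18, from 2.00 to 2.34 for AtLEA4-1 and from 1.95 to 2.92 for LEA4-5. The LEA18 differences lay below all those of the other two genes. The AtLEA4-1 differences fell inside the range of LEA4-5. Taken array pair by array pair, AtLEA4-1 exceeded LEA18 by 0.47 to 0.68 on the log2 scale, with a mean of 0.58, which is 1.49 times in fold. LEA18 minus LEA4-5 was negative in all 4 pairs, between -1.06 and -0.64. AtLEA4-1 minus LEA4-5 lay between -0.59 and 0.05, so these 2 genes had no fixed order. The 4 pairs reuse the same 2 arrays of each genotype, so they are not 4 independent comparisons.

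**Figure D2:**
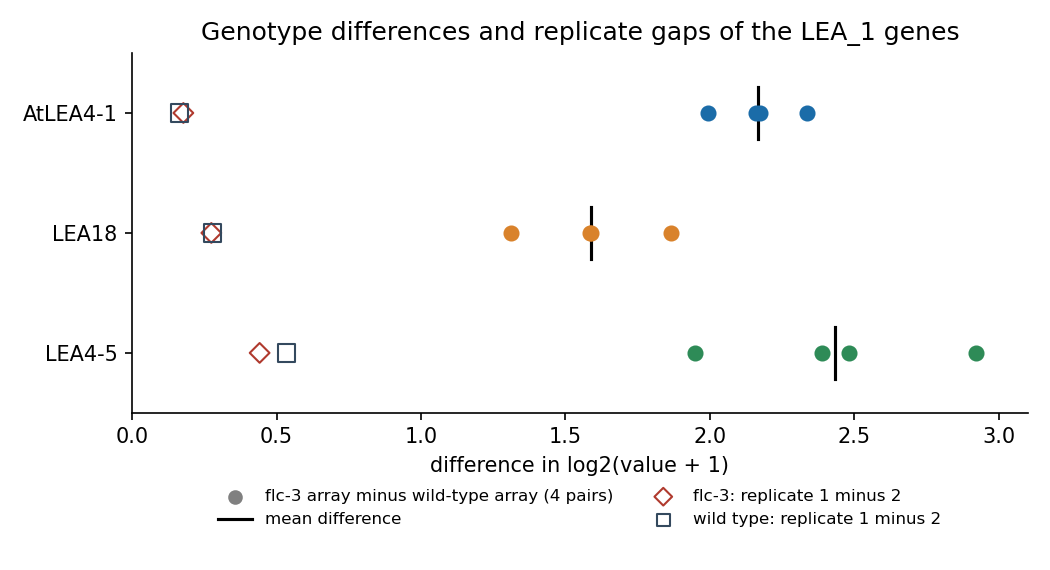
Differences in log2(value + 1) for each LEA_1 gene: filled circles are the 4 pairs of an flc-3 array minus a wild-type array, the vertical bar is the mean difference, and open symbols are replicate 1 minus replicate 2 within flc-3 (diamond) and within the wild type (square). All replicate gaps lie between 0.16 and 0.53, below every genotype difference (1.31 to 2.92), and the LEA18 circles lie left of those of the other genes.

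The spread between arrays of 1 genotype was not used to choose the genes. Replicate 1 was above replicate 2 in both genotypes for all 3 genes, as for 27.5% of tested probe sets. The gap was 0.44 in flc-3 and 0.53 in the wild type for LEA4-5, 0.18 and 0.16 for AtLEA4-1, and 0.27 and 0.28 for LEA18, on the log2 scale. For LEA4-5 the gap was larger than that of 95.6% of tested probe sets between the flc-3 arrays and of 95.0% between the wild-type arrays. The typical absolute gap, the median over tested probe sets, was 0.12 in flc-3 and 0.16 in the wild type. The family was thus brightest on flc-3 replicate 1, which has the lowest spike-in and the highest 25S ribosomal RNA signal, and dimmest on wild type replicate 2, which has the highest spike-in signal. The part of these array properties in the differences was not tested. With neither of those 2 arrays, the remaining pair (flc-3 replicate 2 minus wild type replicate 1) gave 2.00 for AtLEA4-1, 1.31 for LEA18 and 1.95 for LEA4-5. These are the smallest of the 4 pairs for each gene, as they must be where replicate 1 is above replicate 2 in both genotypes. Nothing is read from that.

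The other LEA families were described from a list of 46 genes in 8 families, of which 30 have a named probe set and 21 were bright enough to be tested. Of these 21, 12 rose in flc-3 and none fell in the limma fit (adjusted p under 0.05 over all probe sets), a share of 57.1% against 1.37% of all tested probe sets, and 9 did not pass. Their median log2 difference was 1.40, against -0.01 over all tested probe sets. AT5G44310, AT2G42560 and AT4G39130 were above the filter only through flc-3, so the fit's calls on them are no support for a difference. Of the 18 whose wild-type mean alone was above the filter, 9 rose, with a median of 1.03. The list was written with earlier results of these arrays known, so it is no independent evidence of the direction. LEA4-5 had a larger difference than 19 of the 21, AtLEA4-1 than 16 and LEA18 than 13.

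Of the 12 rises, 8 were in the LEA_4 family, whose members, like the LEA_1 genes, are mostly known from dry seeds. It had 10 tested genes, with a median log2 difference of 1.76. The brightest, AT3G02480, read 2373 and 2340 in flc-3 against 639 and 516 in the wild type, a log2 difference of 2.03 ± 0.14 (SE, n = 2 arrays each, limma adjusted p = 5.2e-05). AT5G44310 rose by 2.58, AT4G36600 by 2.32, AT2G42560 by 2.18, AT3G15670 by 1.87, AT1G72100 by 1.65, and AT4G21020 and AT3G17520 by 1.44 each. Of these, AT5G44310 and AT2G42560 were above the filter only through flc-3. The tested members that did not pass were the COR15 pair, chloroplast proteins made in the cold. COR15A read 408 and 225 in flc-3 against 182 and 166 in the wild type, with a log2 difference of 0.80 (limma adjusted p = 0.151), and flc-3 replicate 1 decides its value: the difference was 0.37 without that array (adjusted p = 0.696) and 1.23 without flc-3 replicate 2 (adjusted p = 0.000745). COR15B had 0.14. A further 4 genes of the family were below the filter, among them AT2G18340, at 39.6 and 24.2 in flc-3 and 10.8 and 4.14 in the wild type.

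Dehydrins, LEA proteins with lysine-rich repeats, were split. The seed-type gene LEA (AT2G21490) rose by 2.91 ± 0.17 (SE, limma adjusted p = 2.76e-05), with signals of 478 and 419 in flc-3 against 71.8 and 47.8 in the wild type. It and AT5G44310, which was above the filter only through flc-3, were the 2 tested genes on the list with a larger difference than LEA4-5. AT4G39130, also above the filter only through flc-3, rose by 1.40, and its call was lost with no filter on dim probe sets (limma adjusted p = 0.0501). COR47 and LTI30, which respond to cold and dehydration, had differences of 0.32 and 0.34 (limma adjusted p = 0.282 and 0.265), and AT1G54410 had -0.14.

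In the smaller families 1 member each rose in 2 of them. DI21 (LEA_3, a drought-induced gene) read 858 and 742 in flc-3 against 378 and 293 in the wild type, a log2 difference of 1.26 (limma adjusted p = 0.00101). AT2G23110 (PvLEA18 family) rose by 2.34, while AT2G23120 of the same family had 0.45 (limma adjusted p = 0.193). M17 (AtM family) had 0.77, with wild-type signals of 389 and 192 that differ more than the flc-3 ones of 477 and 454. For AT2G23120 and M17 the difference depended on the wild-type array. It was 0.63 and 1.27 without wild type replicate 1, and 0.28 and 0.26 without wild type replicate 2. The LEA_2 genes AT2G46140 and AT2G44060 had 0.23 and -0.08. AT3G22490, a seed maturation protein gene below the filter, read 120 and 69.5 in flc-3 against 21.7 and 3.24 in the wild type. With a pseudocount of 16 it was above the filter and passed. Both its wild-type signals lie below 30.8, so the fit's call on it is no support for a difference. The LEA_5 genes were not analysed here.

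**Figure D3:**
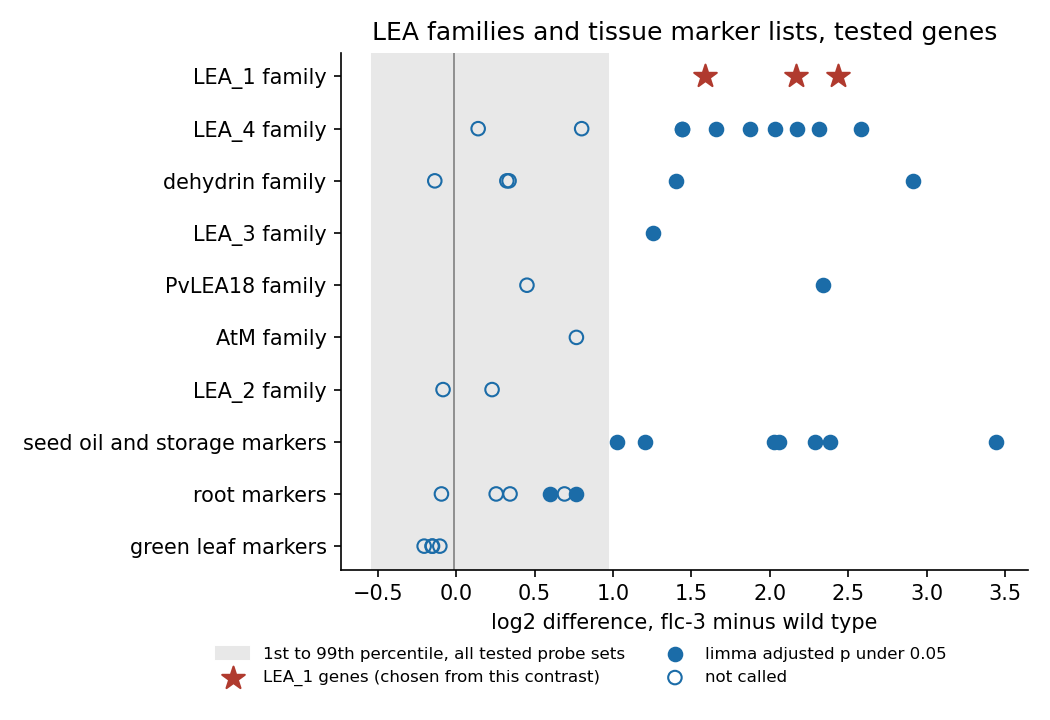
Log2 difference, flc-3 minus wild type, of the LEA_1 genes (stars), of the tested genes of other LEA families and of 3 marker lists, filled where limma's adjusted p is under 0.05. The grey band spans the 1st to the 99th percentile of all tested probe sets (-0.53 to 0.97), and the LEA_1 genes at 1.59 to 2.43 lie to its right with most LEA_4 genes and the seed oil and storage markers, while the green leaf markers lie within it.

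Markers of seed tissue moved with the LEA_1 genes. Of 20 genes for seed oil bodies and storage proteins, 8 have a named probe set and 7 were tested. All 7 rose in limma, against 1.37% of all tested probe sets, and 5 of them had a wild-type mean above the filter. OLEO3 and AT3G18570 were above it only through flc-3, so the fit's calls on them are no support for a difference. The median log2 difference of the 7 was 2.05, against -0.01 over all tested probe sets. Summed over the 8, the signal was 3213 and 2771 in flc-3, against 1067 and 762 in the wild type. PAP85, a vicilin-like storage protein, rose by 3.44, the cupin gene AT4G36700 by 2.38, and OLEO3, an oil-body coat protein, by 2.29. The oleosin genes AT3G18570, AT3G01570 and AT2G25890 rose by 2.05, 2.02 and 1.03 and the cupin gene AT2G28490 by 1.21. The calls of AT2G25890 and AT2G28490 were lost with no filter (adjusted p = 0.0861 and 0.0501). The exception was AT1G03890, a cruciferin-type gene below the filter, at 2.64 and 11.8 in flc-3 and 11.2 and 10.04 in the wild type. The part of seed tissue in the LEA_1 differences was not tested.

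Green tissue was covered by 4 of 17 listed genes, 3 of them LHCB4 paralogs. RCA, LHCB4.1 and LHCB4.2 were bright on every array, as the label of whole seedlings gives. LHCB4.3 was dimmer, at 109 and 102 in flc-3 and 117 and 110 in the wild type. Of 4 tested green leaf genes none passed in limma, where 1.69% of all tested probe sets were called, so with so few genes nothing is read from it. Limma called 230 probe sets in all and gave 1646 an unadjusted p under 0.05. The log2 differences were -0.15 for LHCB4.1, -0.20 for LHCB4.2 and -0.10 for LHCB4.3. Of 6 tested root genes 2 rose, AT2G25980 by 0.76 and the peroxidase gene AT5G17820 by 0.60, where 1.37% of all tested probe sets were called higher. Both calls were absent when flc-3 replicate 1 was left out (adjusted p = 0.132 and 0.179) and with no filter, and AT5G17820 also without flc-3 replicate 2 (adjusted p = 0.148) and without the intensity trend (0.0747). EXPA7, EXPA18 and AT4G11290 had differences of 0.69, 0.34 and 0.25 and did not pass. PYK10, a beta-glucosidase of root ER bodies, had -0.09 and makes up most of the summed root signal, which was 3487 and 4545 in flc-3, against 4304 and 3598 in the wild type, and overlapped. The other 5 were all higher in flc-3 by their means and summed to 764 and 780 in flc-3, against 524 and 507 in the wild type, with no overlap. This sum leaves out PYK10, the only tested root gene with a lower mean in flc-3. Gene by gene, 4 of the 6 had both flc-3 arrays above both wild-type arrays, as did 20.1% of tested probe sets. AT4G11290 overlapped, at 85.2 and 121 in flc-3 and 91.3 and 78.8 in the wild type. The part of root tissue in the LEA_1 differences was not tested.

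ABA acts on LEA genes through bZIP transcription factors that bind their promoters. Of 61 genes listed for seed maturation and ABA transcription factors, ABA receptors, phosphatases and kinases, ABA synthesis and breakdown, and ABA response, only EEL (AT2G41070), a bZIP factor of seed maturation, has a named probe set, and the others were not analysed here. EEL read 81.0 and 55.9 in flc-3 against 27.0 and 16.4 in the wild type, a log2 difference of 1.63 ± 0.26 (limma standard error, n = 2 arrays each). It was above the filter only through flc-3, both wild-type signals being below 30.8, so the fit's call on it is no support for a difference. Like the LEA_1 genes it was higher in replicate 1 of both genotypes, by 0.53 in flc-3 and 0.69 in the wild type. With no filter it did not pass (limma adjusted p = 0.113).

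The neighbours of the LEA_1 genes on the chromosomes gave no calls, where 1.69% of all tested probe sets were called, so with so few genes nothing is read from it. Among the 5 protein-coding genes on either side of each, 3 were tested for each gene, and none of these 9 passed in limma. Their differences ran from -0.50 for AT1G32520, 4 genes from AtLEA4-1, to 0.51 for AT2G35310, beside LEA18. AT5G06770, beside LEA4-5, had 0.12. These neighbours were looked at after the calls had been seen.

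The genes whose pattern over the 4 arrays lay closest to the mean pattern of the family, by the Euclidean distance of log2 values centred on each gene's mean, were AT1G27461 (distance 0.13), AT3G01570 (0.14), AT3G02480 (0.20), AT1G65090 (0.21) and AT3G18570 (0.22). For scale, the median over the 7270 tested probe sets with 1 locus, members left out, was 2.11, and the members themselves lay at 0.18 for AtLEA4-1, 0.41 for LEA4-5 and 0.48 for LEA18. AT1G27461 read 136 and 118 in flc-3 against 30.2 and 24.9 in the wild type, and AT1G65090 read 201 and 137 against 47.9 and 35.02. AT3G02480 is the LEA_4 gene described above, and AT3G01570 and AT3G18570 are oleosin genes. AT1G27461 and AT3G18570 were above the filter only through flc-3. The members were chosen from the genotype contrast, so genes picked for likeness to them had to be higher in flc-3. Nothing is read from that direction. This ranking rests on the measure. With a pseudocount of 16, 2 of these 5 were among the closest 5, and ranked by correlation over the 4 arrays, which ignores the size of the change, none was.

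**Figure D4:**
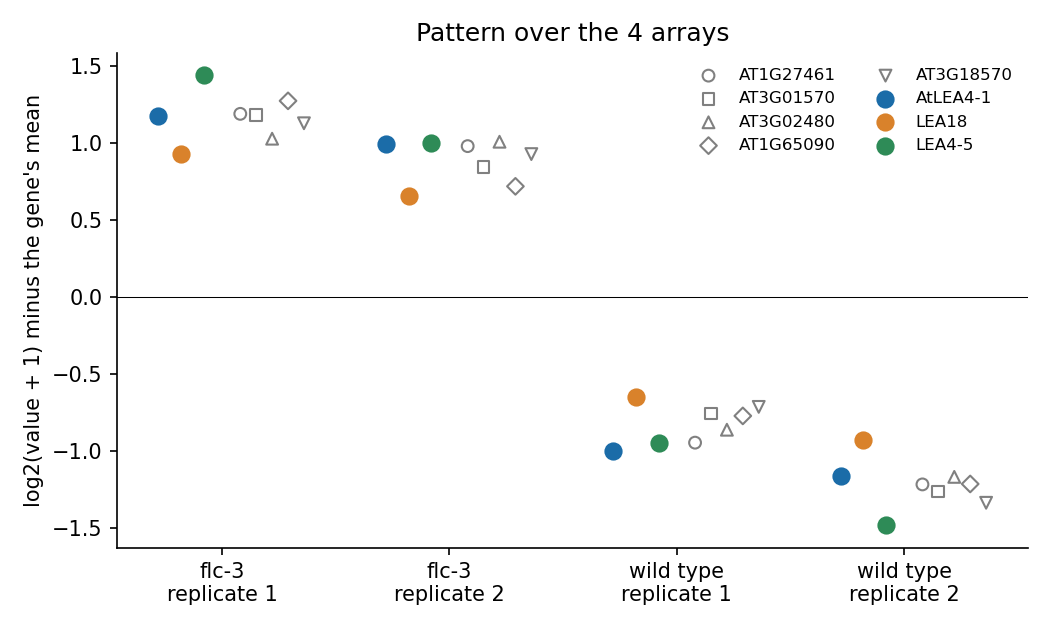
Log2(value + 1) minus the gene's own mean on each of the 4 arrays, for the LEA_1 genes (filled circles) and the 5 genes closest to their mean pattern (open symbols). All 8 genes lie above 0 on both flc-3 arrays and below 0 on both wild-type arrays, with LEA18 nearest to 0 on each array. The way the genes were chosen fixed these sides of 0 in advance.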

How the data were processed

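Transcript levels were measured on 4 Affymetrix ATH1 arrays, 2 per genotype by the titles. The deposited values are linear signal intensities. The submitters' processing notes name MAS5, with no version or genome build given in the sources used here. After trimming 2% from either end, each array's mean was 100.01, so the authors' scaling was kept. Detection calls were not used. Probe sets were named through the platform annotation and a TAIR10.1 gene table, which gave 1 locus to 13436 of 22746 probe sets after 64 controls were left out.

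Values were transformed as log2(value + 1), which understates changes of dim genes. A filter at the 40th percentile of the mean log2 value kept 13648 for testing. The fit used limma 3.58.1 in R 4.3.3 (lmFit, eBayes with an intensity trend, 2-sided, Benjamini-Hochberg adjusted p under 0.05), with genotype as the only term. Standard errors are moderated towards those of similarly bright probe sets. The labels do not state separate cultures for the replicates, so p-values rest on a spread that may be technical. In 5 simulated runs of 13648 probe sets the fit found 86.2% of 2-fold changes and 100% of 4-fold ones, and 2.9% of its calls were false. The runs drew independent noise from the spread that limma itself fitted, with no array or batch effect. They show how the fit performs under its own assumptions, and 2.9% is not the false share in these data.

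Lists use the brightest probe set per gene. Named are the members, every called gene of a list with its 3 smallest other p, and the 5 genes nearest in pattern. The members and lists were chosen with earlier results of these data known. Alternatives were other normalizations, pseudocounts, filters and eBayes settings, a replicate block and each array left out.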

Additional observations from a re-analysis of the deposited data

Results flagged for a closer look

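A control for 25S ribosomal RNA had a signal of 1426 in flc-3 replicate 1 and 45.7 in flc-3 replicate 2, against 134.6 and 47.6 in the wild type. It was flagged because a control outside the comparison was far above its level in the wild-type arrays. Without flc-3 replicate 1 the log2 differences were 2.08 for AtLEA4-1, 1.45 for LEA18 and 2.21 for LEA4-5.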

How the results depend on the processing

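The differences of the LEA_1 genes kept their sign under 3 other normalizations, 2 other pseudocounts, the replicate block, the ratio of mean signals (an alternative added after the data were seen) and with each array left out. Under the normalizations, pseudocounts and ratio of mean signals they moved by less than the replicate SD but for 1: with a pseudocount of 16, AtLEA4-1 had 2.04. The block cannot move a difference between equal groups. Leaving 1 array out shifts it by a part of the replicate gap that is always below this SD. Nor could the sign change there, as both flc-3 arrays lay above both wild-type arrays. Nothing is read from the block or the left-out arrays on this point. With 1 array left out they ranged from 2.08 to 2.25 for AtLEA4-1, from 1.45 to 1.73 for LEA18 and from 2.17 to 2.70 for LEA4-5. The lone array is then assumed to vary like the others. Over all probe sets the 230 calls became 121 with no filter, 149 with a filter at the 60th percentile and 147 to 364 with 1 array left out (147 without flc-3 replicate 1, 364 without wild type replicate 1), and the 187 higher ones became 107, 118 and 121 to 290. With the replicate number as a block there were 769 calls, 489 of them higher, from 1 residual degree of freedom, while the member differences stayed at 2.17, 1.59 and 2.43. Deviations of same-numbered arrays correlated at 0.09 over all tested probe sets, which cannot show whether these arrays shared a culture or batch. Among the 21 tested genes of other LEA families, replicate 1 was higher in both genotypes for 15, against 27.5% of tested probe sets. A pairing of same-numbered samples was not tested. The 12 calls among other LEA families were 9 with the stricter filter, where 3 genes were not tested, 11 with none, 12 to 15 with 1 array left out (15 without wild type replicate 1) and 16 with the replicate block, which added COR15A, LTI30 (adjusted p = 0.0478), AT2G23120 and M17. The block also called EXPA7 (adjusted p = 0.00683). The call of EEL was absent with no filter (0 calls), with the stricter filter (0), which it did not pass, and without flc-3 replicate 1 (0 to 1 calls with 1 array left out). Of 506 refits of the 37 named list genes, 10 lost a call, 8 gained 1 and 0 reversed. A change of sign in a gene that was not called does not count as reversed. Without flc-3 replicate 1, COR15B went from 0.14 to -0.20 and AT2G44060 from -0.08 to 0.01. Refits in which a gene fell below the filter are not among the 506 and do not count as lost. They include OLEO3 without flc-3 replicate 1 and AT3G18570 when either flc-3 array was left out. Planned searches of promoter motifs and protein sequences were not run, since no sequence was used here.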
